A study of Mus musculus with 2 samples.

Results

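The nuclear factor I (NFI) family of mouse has 4 genes, Nfia, Nfib, Nfic and Nfix, and all 4 were followed here across cell types of the embryonic brain midline. The members were found by their gene symbols among the 32285 genes of the deposited tables, which are the same in both libraries, so each symbol gave 1 row. The tissue was the corticoseptal boundary, where cortex and septum meet and where axons of the corpus callosum cross, taken at E16.5. One library came from wild-type embryos (WT), and the other from embryos with the genotype Tcf4f/f;Emx1Cre (cKO), in which both copies of Tcf4 are floxed and Cre is driven by Emx1, a gene of the dorsal telencephalon. Cells outside the Emx1 lineage, such as subpallial GABAergic neurons and microglia, therefore share the floxed alleles without Cre. The labels give neither the number of embryos per library nor the floxed exon. With 1 library per genotype no test between genotypes exists, and a difference between libraries cannot be told apart from a difference between the pieces of tissue.

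NFI proteins are transcription factors that bind as dimers to a palindrome of TTGGC and its reverse complement with 5 bases between them, and more weakly to a single TTGGC. In the developing forebrain Nfia, Nfib and Nfix are known to move radial glia from self-renewal towards neurons and then glia, partly by lowering Notch pathway and chromatin genes such as Hes1 and Ezh2 and by raising astrocyte genes such as Gfap. Mice without Nfia or Nfib lack a normal corpus callosum and form too few of the midline glia that guide its axons. Nfic is known mainly for its part in tooth root formation. Tcf4 encodes an E-protein, a basic helix-loop-helix factor that binds E-boxes of the form CANNTG.

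The 3 start regions shown here were chosen because Nfia and Nfix followed each other across cell types below and because an E-protein was the factor removed. Each run holds the 250 bases before a RefSeq transcript start (GRCm38.p6), 5′ to 3′ on the gene's strand. Capitals mark a match, on either strand, to TTGGC or to 1 of 3 E-boxes. The first E-box searched was CAGGTG, the second was CAGCTG and the third was CATCTG. The Nfia window lies on the plus strand at chr4:97581693-97581942, before the gene as GENCODE draws it. That GENCODE span starts only at 97772734, so the window does not lie next to it. The windows of the first and the second of 4 Nfix starts lie on the minus strand at chr8:84780083-84780332 and chr8:84775829-84776078, inside the GENCODE gene. None of the 3 overlaps a GENCODE exon.
Nfia: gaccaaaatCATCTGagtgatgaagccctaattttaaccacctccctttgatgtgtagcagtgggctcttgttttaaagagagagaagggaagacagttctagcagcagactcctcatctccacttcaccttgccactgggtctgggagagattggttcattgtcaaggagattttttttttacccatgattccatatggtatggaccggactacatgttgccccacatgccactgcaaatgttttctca
Nfix, first start: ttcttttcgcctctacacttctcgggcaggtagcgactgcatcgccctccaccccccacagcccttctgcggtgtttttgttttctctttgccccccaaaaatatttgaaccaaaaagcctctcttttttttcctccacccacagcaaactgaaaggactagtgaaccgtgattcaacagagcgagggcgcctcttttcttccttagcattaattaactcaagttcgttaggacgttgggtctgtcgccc
Nfix, second start: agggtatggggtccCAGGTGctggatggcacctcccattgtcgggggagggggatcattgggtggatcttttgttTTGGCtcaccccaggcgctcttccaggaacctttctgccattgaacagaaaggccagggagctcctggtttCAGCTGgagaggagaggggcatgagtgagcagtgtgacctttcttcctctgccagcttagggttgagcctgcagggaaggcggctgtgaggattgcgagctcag
The Nfia window held 1 CATCTG and no TTGGC. The window of the first Nfix start held none of these letters, and that of the second start held 1 CAGGTG, 1 CAGCTG and 1 TTGGC. The full palindrome, which contains TTGGC on both strands, was in none of the 3. Over all 32851 RefSeq windows of this length, 41.51% held TTGGC, 38.11% held at least 1 of the E-boxes and 0.04% held the palindrome. A match is a description of letters and not a binding site. The Nfic window (chr10:81427174-81427423, minus strand) held no match, and Nfib was not matched in this table. Of the Nfix windows not shown, that of the third start, with all 250 bases in an Nfix exon, held no match. That of the fourth start held 1 TTGGC and 1 CATCTG.

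Transcripts were counted by UMIs (molecular tags that mark each captured transcript once), with 116998498 UMIs in WT and 121321247 in cKO. After filters and removal of doublets 8634 WT and 10142 cKO cells remained, with medians of 9660 and 8152 UMIs, and 21 barcodes occurred among the cells of both libraries. Levels below are CPM, the UMIs of a class or cluster summed within a library and scaled to a total of 1000000, with exact Poisson intervals, and ratios are cKO over WT with exact conditional binomial intervals. All intervals are at 95% and cover counting error only. The targeted gene, Tcf4, stood at 1499 CPM in WT and 1139 in cKO over all cells, a ratio of 0.760 (0.754 to 0.766). Its ratio was 0.657 in glutamatergic neurons, 0.650 in intermediate progenitors, 0.590 in cycling progenitors, 0.892 in astroglia and 0.929 in GABAergic neurons. Since the libraries count 3′ ends, these UMIs say nothing about the protein that remains. The boundary tissue held both of its sides: Emx1 of the pallium stood at 62.7 and 46.7 CPM and Six3 of the septum at 134 and 117 CPM. Free RNA, read from droplets of 10 to 100 UMIs, was estimated at 2.276% of a neuron's UMIs in WT and 1.201% in cKO. At that share it would add 24.5 CPM of Nfib to a WT neuron and 14.0 CPM to a cKO neuron.

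Nfib (ENSMUSG00000008575) lies on chromosome 4, 82290173 to 82705750, minus strand, in mm10. Over all cells it stood at 2099 CPM in WT and 2377 in cKO. Nfix (ENSMUSG00000001911; chromosome 8, 84699876 to 84800344, minus strand) stood at 1251 and 1347 CPM. Nfia (ENSMUSG00000028565; chromosome 4, 97772734 to 98118874, plus strand) stood at 730 and 670 CPM. Nfic (ENSMUSG00000055053; chromosome 10, 81396186 to 81455635, minus strand) was by far the sparsest, at 45.7 and 43.7 CPM. Nfib thus gave 50.9% of the family's UMIs in WT, Nfix 30.3%, Nfia 17.7% and Nfic 1.11%. These are shares of captured 3′ tags and not of transcripts per length, and whether intronic reads were counted is not given in the sources used here, so the levels of different members are not compared further. Nfib shares its span with Gm11266, an antisense gene with 2989 UMIs in WT, and Nfia with the antisense E130114P18Rik, with 9242. The tables count these genes in rows of their own. Whether any reads of these antisense genes entered the rows of the members was not tested.

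Among named cell classes the family was highest in glutamatergic neurons and lowest in cells of the choroid plexus and microglia, in both libraries. The summed level of the 4 genes was 7874 CPM (7829 to 7918) in WT glutamatergic neurons and 8284 CPM (8238 to 8329) in cKO. Intermediate progenitors, the transit cells that divide into cortical neurons, held 6357 and 6303 CPM. Cajal-Retzius cells, early neurons that secrete reelin, held 5199 and 5224 CPM in 74 and 63 cells. Cycling progenitors followed with 3520 and 3508 CPM, and astroglia, a class of radial glia and astrocyte lineage cells, with 2778 and 2957 CPM. GABAergic neurons held 2260 and 1741 CPM. The smallest levels were 1299 and 1267 CPM in oligodendrocyte progenitors, 833 and 884 CPM in microglia and 756 and 598 CPM in choroid plexus cells, classes of 24 to 58 cells per library. Astroglia thus held 0.353 times the WT level of glutamatergic neurons.

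The members did not share 1 order of classes. Nfib ran from 4202 CPM in WT glutamatergic neurons through 3113 CPM in intermediate progenitors and 2763 CPM in Cajal-Retzius cells to 1611 CPM in cycling progenitors. Astroglia and GABAergic neurons, at 1311 and 1295 CPM, had overlapping intervals. Nfix kept the order of Nfib from glutamatergic neurons, at 2652 CPM, down to GABAergic neurons, at 543 CPM, with no overlap between neighbours among those 6 classes. Nfia was flatter: intermediate progenitors, at 1007 CPM, and glutamatergic neurons, at 984 CPM, overlapped, as did cycling progenitors, at 801 CPM, and astroglia, at 766 CPM. Nfia made up 27.6% of the family's UMIs in WT astroglia and 12.5% in WT glutamatergic neurons. Nfic went a different way. It was highest in microglia, at 170 CPM (140 to 206) in WT and 131 (105 to 163) in cKO, and next in cycling progenitors, at 89.3 and 92.8 CPM. Its lowest level was 18.4 CPM in WT GABAergic neurons, which did not overlap with the 35.5 CPM of glutamatergic neurons.

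**Figure D1:**
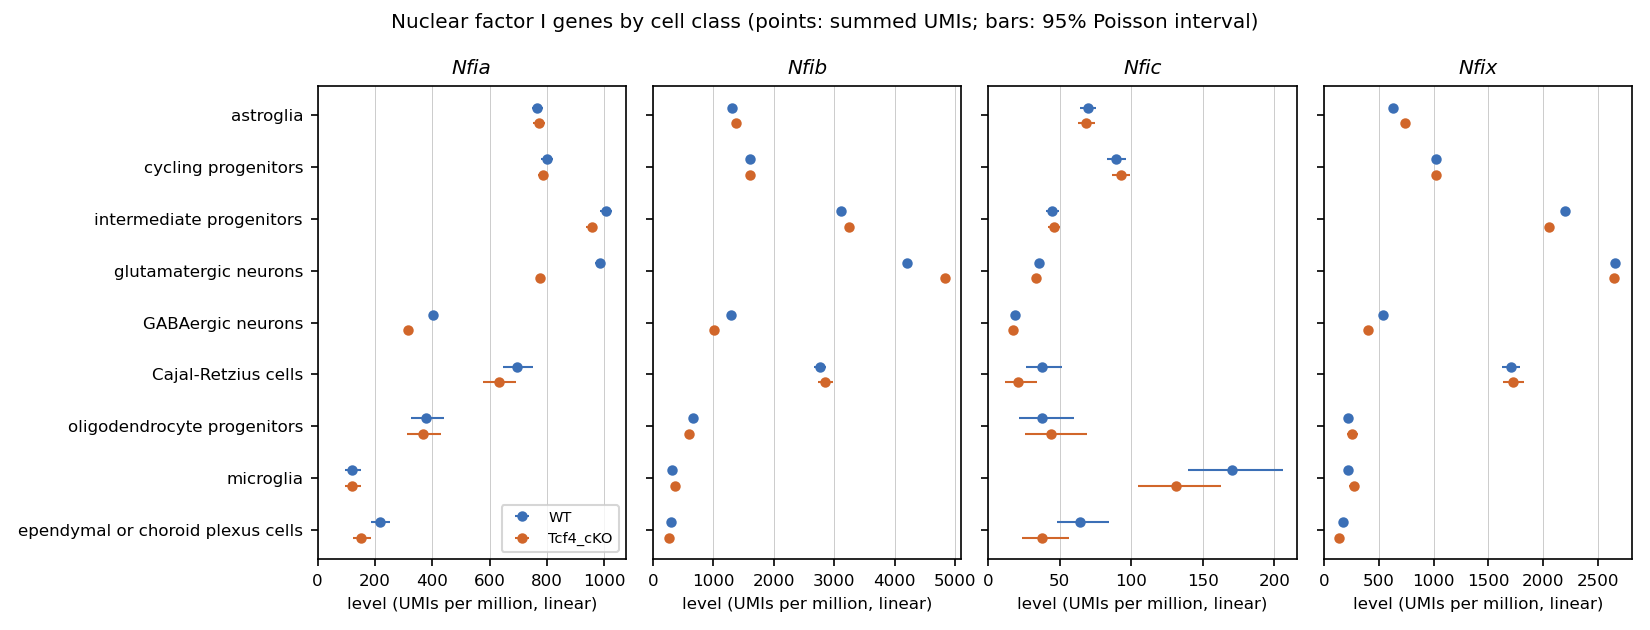
Level of each NFI gene (CPM, linear axes that differ between genes) in 9 cell classes, for WT and cKO, with 95% Poisson intervals. Nfib and Nfix peak in glutamatergic neurons, Nfia is flatter across progenitors and neurons, and Nfic is highest in microglia at 170 CPM in WT.

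Within classes the clusters showed how far the levels spread. In WT the family reached 9793 CPM in cluster 5, glutamatergic neurons led by Sln and the adhesion gene Cntn2, and 9411 CPM in cluster 15, glutamatergic neurons led by Gm28050, Adra2c and Ebf1. Nfia had its highest level in cluster 15, at 1541 CPM in WT and 1465 in cKO. Of the intermediate progenitors, cluster 9, led by Neurog2 and Eomes, held 1549 CPM of Nfib in WT and cluster 0, led by Epha3 and Mfap4, held 4056 CPM. Nfix was 1609 and 2544 CPM in the same clusters, so the cluster led by Epha3 held more of both. Nfia differed less between them, at 784 and 1142 CPM.

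Astroglial clusters differed along with their regional genes. Cluster 12, with Emx1 at 65.9 CPM in WT, led by Ung, Prrx2, Hopx, Tnc and Aldoc, held 3220 CPM of the family in WT. Cluster 21, led by the midline signal gene Fgf17 with Six3 at 525 CPM, held 2906 CPM. Cluster 16, with Six3 at 275 CPM and Emx1 at 2.28 CPM, held 1753 CPM. The septal cluster 16 was lowest for all 4 members, and Nfix stood at 901 CPM in cluster 12, 504 CPM in cluster 21 and 350 CPM in cluster 16. Among these named clusters Nfia was highest in the Fgf17 cluster, at 870 CPM (837 to 904), above 739 CPM (710 to 770) in cluster 12. Clusters 6 and 14, left unnamed, scored highest as astroglia. Their Nfia levels in WT were 900 CPM (875 to 926) and 823 CPM (787 to 860), so the Fgf17 cluster did not stand out from them.

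GABAergic clusters spread widely around the level of their class. Cluster 4, led by Aldh1a3, Dlx6os1 and Sp9, held 3315 CPM of the family in WT, and cluster 2, led by Gm44643 and Lgals7, held 3045 CPM. Cluster 23, led by the striatal genes Tac1, Zfp503, Rarb and Ebf1, held 270 CPM, and cluster 27, led by Nwd2 and Gbx1, 152 CPM in only 21 WT cells. Cluster 23 had Nfia at 22.5 CPM, against 13 CPM that free RNA would give a WT neuron, so little Nfia above that level was measured there. Nfib in the same cluster, at 172 CPM, was above the 24.5 CPM of its free RNA estimate. It was below the 322 CPM of WT microglia, which serve as the background for Nfib shares below.

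**Figure D2:**
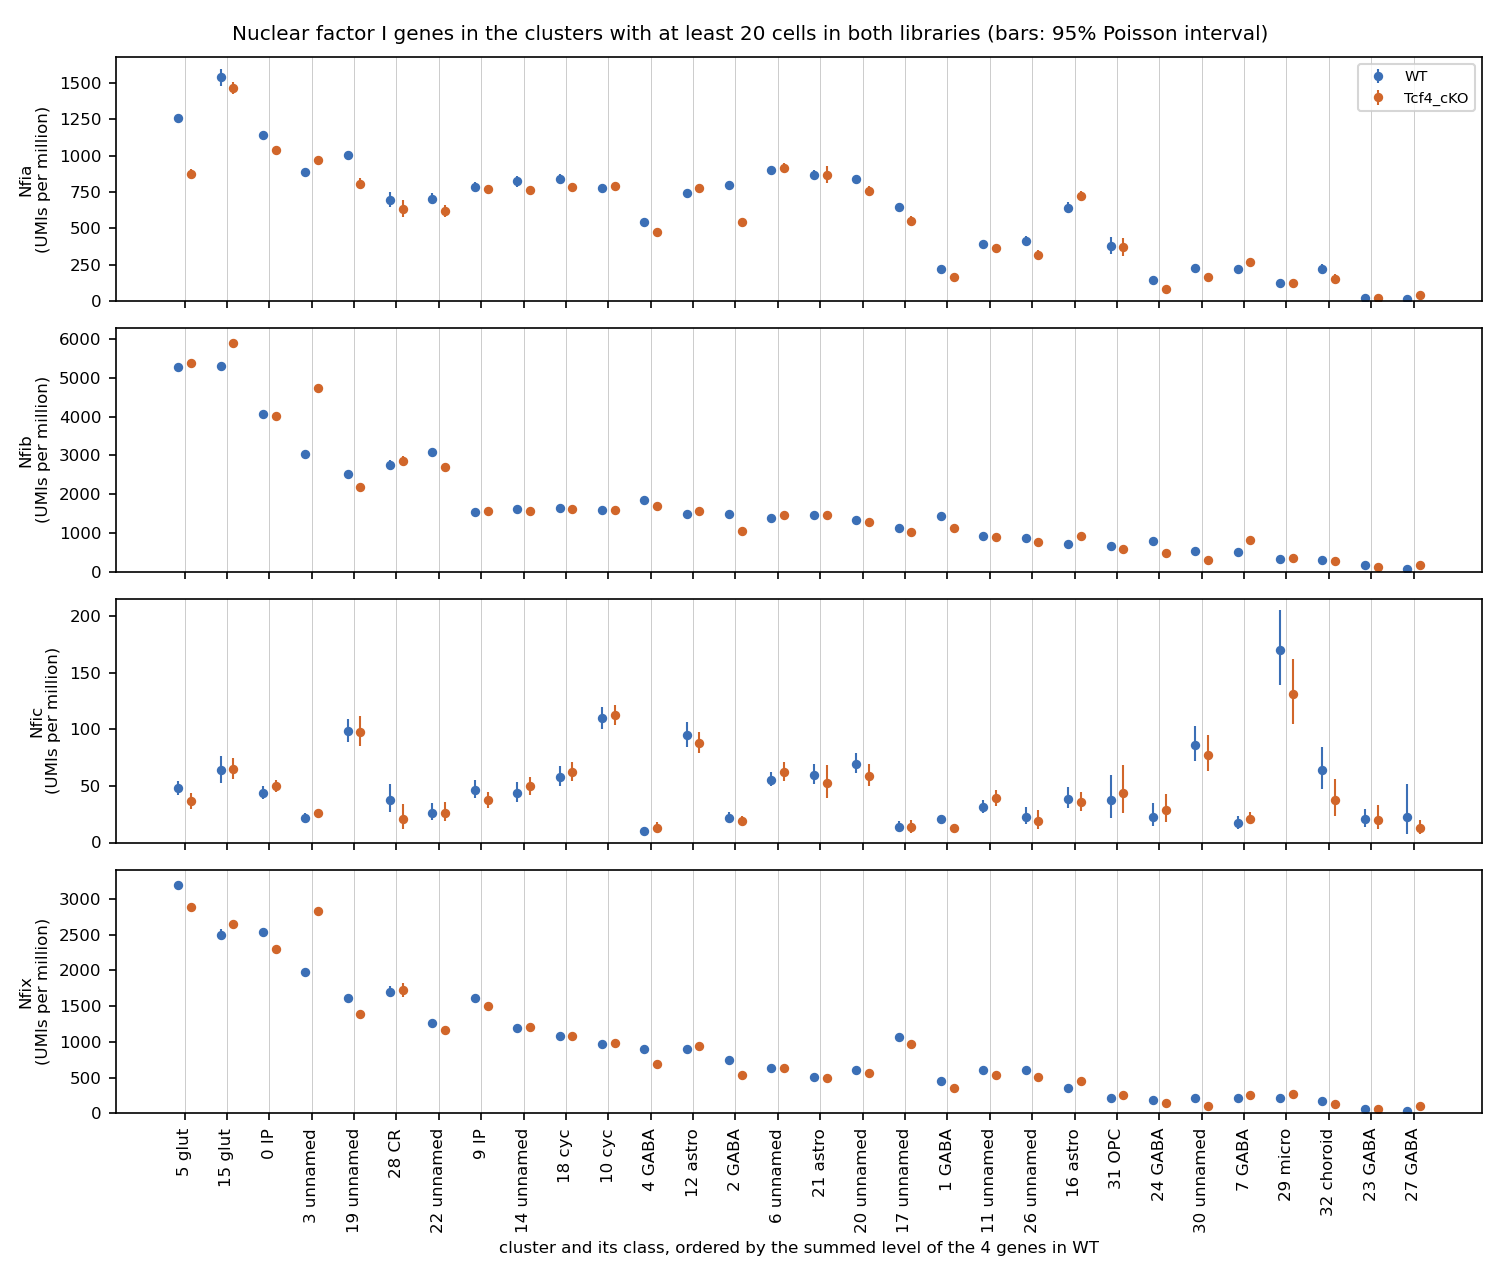
Level of each NFI gene (CPM) in the 30 clusters with at least 20 cells in both libraries, ordered by the summed WT level, with 95% Poisson intervals. Nfib and Nfix make up most of the sum that sets the order and so follow it, with Nfib highest in cluster 15 at 5306 CPM and Nfix in cluster 5 at 3200 CPM, whereas Nfic peaks in clusters 29, 10, 19 and 12.

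After thinning every cell to 3341 UMIs, 86.1% of WT and 85.4% of cKO cells held at least 2 members. The share was 99.9% in both libraries for glutamatergic neurons, 95.3% and 95.7% for astroglia and 60.0% and 54.0% for GABAergic neurons. Nfib was found in 99.9% of WT and 99.9% of cKO glutamatergic neurons and in 93.3% and 94.5% of astroglia. Nfic was found in 18.1% and 18.2% of astroglia, and in 43.5% and 40.5% before thinning. Microglia, which are not of neural origin, served as the background: Nfib was found in 24.5% (13.8 to 38.3) and 24.1% (13.9 to 37.2) of them, at medians of 10059 and 8745 UMIs before thinning. The Nfib shares of astroglia and of glutamatergic neurons lay far above that. Microglia are no such background for Nfic, which had its highest level there, with a share of 28.3% (16.8 to 42.3) in WT. Free RNA would add 0.62 CPM of Nfic to a WT neuron. At least 1 UMI of some member was found in all 507 WT and 672 cKO cycling progenitors, which allows shares without any of up to 0.725% and 0.547%. By contrast no member was found in 59.6% (51.6 to 67.3) of WT and 62.4% (52.6 to 71.5) of cKO cells of the striatal-gene cluster 23.

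Across the 26 clusters with at least 50 cells in each library, the levels of Nfib and Nfix on the log2(CPM + 5) scale had a correlation of 0.935 in WT and 0.939 in cKO. Nfia and Nfix gave 0.884 and 0.865, and Nfia and Nfib 0.852 and 0.854. Nfic stood apart, with correlations from 0.103 to 0.315 with the other members. These are descriptions over clusters that share a library and its depth, with no test. Among 6187 genes, ranked by the lower of their correlations in the 2 libraries and with the other members left out, the first for Nfix and also for Nfib was Gm11266, the antisense gene within Nfib, at 0.840 and 0.783 in WT and 0.845 and 0.800 in cKO. The next for Nfib were Ttc28, Arhgef25, Akt2 and Trak1, and for Nfix Zbtb18, which encodes a transcriptional repressor, with Mrps12, Rcor1 and Lix1. For Nfia they were 1700123O20Rik (0.816 and 0.811), Gm11266, Lrrc58, Zfp771 and Cd320. For Nfic they were Cyba (0.815 and 0.804), Cbfb, Rhog, Casp8 and Gm26532.

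Between the libraries the summed NFI ratio lay nearest to 1 in cycling progenitors among the 5 large classes, which does not hold for each member alone. The interval overlapped with that of intermediate progenitors. With thinned cells the order turned, at 0.966 in cycling and 1.00 in intermediate progenitors. Nfia in glutamatergic neurons and the 3 abundant members in GABAergic neurons were lower in cKO. None of the 20 pairs of a member and 1 of the 5 large classes was past 1.5-fold on the log2 scale with 5 CPM added. Over all genes with at least 50 UMIs, 2.23% of 56639 gene and class pairs were past that fold, so the members' count of 0 is near the background. At a smaller difference, 25% higher or 20% lower, 4 of the 20 pairs were past it, beside 8.91% of all pairs.

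In cycling progenitors, where Tcf4 was at a ratio of 0.590, all members lay close to 1. Nfib was 1611 CPM in WT and 1603 in cKO (ratio 0.995, 0.972 to 1.02), and Nfix 1019 and 1025 CPM (0.976 to 1.04). Nfia was 801 and 787 CPM, and Nfic 89.3 and 92.8 CPM, each with an interval that contains 1. The summed ratio was 0.997 (0.981 to 1.01). Intermediate progenitors gave a summed ratio of 0.991, with Nfib at 3113 and 3245 CPM (ratio 1.04) and Nfix at 2192 and 2056 CPM (ratio 0.938). The Nfib ratio turned below 1 in other settings, to 0.886 with doublets kept, 0.889 at the finer clustering, 0.984 with the UMI minimum doubled and 0.992 with clusters weighted equally.

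Astroglia gave a summed ratio of 1.06 (1.04 to 1.08). Nfia, at 766 and 773 CPM, had a ratio of 1.01 (0.973 to 1.05). Nfix was higher in the cKO library, at 632 and 743 CPM (ratio 1.18, 1.13 to 1.22), and after thinning it was found in 76.4% of WT and 84.2% of cKO cells. The make-up of the class moved with this value: cluster 21, which held less Nfix, had 294 WT and 116 cKO cells, and cluster 12 had 267 and 396. Within cluster 12 the Nfix ratio was 1.05 (0.997 to 1.10) and within cluster 21 it was 0.991 (0.894 to 1.10). With clusters of the class weighted equally it was 1.08. In septal cluster 16, where Tcf4 itself was higher in cKO (ratio 1.21), Nfix stood at 350 and 452 CPM (ratio 1.29, 1.16 to 1.43) and Nfib at 724 and 915 CPM (ratio 1.26, 1.18 to 1.36).

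Glutamatergic neurons showed members that went in different directions. Nfia was lower in cKO, at 984 CPM (968 to 1000) and 776 CPM (762 to 790), a ratio of 0.789 (0.770 to 0.808). Nfib was higher, at 4202 and 4831 CPM, a ratio of 1.15 (1.14 to 1.16). Nfix stood at 2652 and 2643 CPM and Nfic at 35.5 and 33.4 CPM, both with intervals that contain 1. Nfia made up 12.5% of the family's UMIs in WT and 9.37% in cKO, and after thinning it was found in 92.3% (90.8 to 93.7) of WT and 83.9% (82.1 to 85.6) of cKO cells. Part of the class was not shared: cluster 13 had 632 WT and 5 cKO cells, cluster 8 had 10 and 687, and cluster 25 had 12 and 223. Nfia stood at 713 CPM in WT cells of cluster 13, and in cKO cells at 440 CPM in cluster 8 and 709 CPM in cluster 25. Without the clusters of 1 library the Nfia ratio was 0.873 and the Nfib ratio 1.06. Cluster 5, with 513 WT and 456 cKO cells, had Nfia at 1258 and 873 CPM (ratio 0.694, 0.663 to 0.726) and Nfib at 5287 and 5374 CPM (ratio 1.02). In cluster 15 the Nfia ratio was 0.951. The low Nfia ratio of cluster 5 was thus not matched in the other glutamatergic cluster with at least 20 cells of each library; the difference between them was not tested. In cluster 5, 94.4% of a cell's nearest neighbours were of its own library. At the finer clustering no part of cluster 5 held at least 20 cells of each library. The ratios of cluster 5 therefore compare WT and cKO cells that grouped largely apart. What part cell make-up had in them was not tested.

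GABAergic neurons, which arise outside the Emx1 lineage, had the lowest summed ratio of the 5 large classes, 0.770 (0.760 to 0.781). Nfia stood at 403 and 315 CPM (ratio 0.781), Nfib at 1295 and 1006 CPM (ratio 0.777) and Nfix at 543 and 402 CPM (ratio 0.741, 0.719 to 0.762). Nfic, at 18.4 and 17.1 CPM, had an interval that contains 1. The 3 abundant members were thus lower together, while Tcf4 was at 0.929 and the median of all genes tested in the class was 0.01 on the log2 scale. Clusters 1, 2, 4, 23 and 24 each had lower summed levels in cKO, with ratios of 0.781, 0.702, 0.870, 0.834 and 0.644. The parts of cluster 2 at resolution 1.5 lay closer to 1 for Nfib, at 0.742 and 0.884, than the 0.705 of the whole cluster. Cluster 7, led by Lhx8 and Lhx6, went the other way, at 958 and 1370 CPM (ratio 1.43), and it held 279 WT and 513 cKO cells. With clusters weighted equally the summed ratio was 0.848. Cluster 27 was higher, at 152 and 321 CPM. What part cell make-up or dissection had in the class ratio was not tested.

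Over the 30 clusters with at least 20 cells in both libraries, 115 pairs of a member and a cluster had at least 50 UMIs. Of these 5 were past 1.5-fold higher and 6 past it lower. Over all genes 1.82% of 233057 gene and cluster pairs were past it higher and 2.27% lower, 4.08% together, against 9.57% of the member pairs. The pairs are not independent, since members of 1 cluster share its cells. Cluster 3 had more Nfib in cKO, with 3031 and 4745 CPM (ratio 1.57, 1.54 to 1.60), with Nfix at 1982 and 2831 CPM (ratio 1.43). Cluster 3, led by Cyp26b1, Ifi203 and Zfp385b and left unnamed, held 326 WT and 714 cKO cells. At the finer resolution of 1.5 the part with cells of both libraries had 23 WT and 704 cKO cells, and its Nfib ratio was 1.46 (1.37 to 1.57). Tcf4 was lower in the whole cluster, at a ratio of 0.764, and higher in that part, at 1.21 (1.09 to 1.35). Cluster 7 also had more Nfib in cKO, with 509 and 826 CPM (ratio 1.62, 1.51 to 1.74), and more Tcf4, at a ratio of 1.58. With cells thinned, the Nfib ratio was 1.49 in both clusters, just inside the fold.

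The remaining pairs rested on few cells, or were lower in 1 part of a cluster only. In cluster 27, with 21 WT cells, Nfib, Nfix and Nfia were past the fold higher, beside 10.2% of all genes, Nfib at 80.5 and 160 CPM from 18 UMIs in WT. In cluster 30, which holds endothelial and mural genes such as Cldn5 and Rgs5, Nfib stood at 526 and 291 CPM (ratio 0.553, 0.487 to 0.627) and Nfix at 214 and 104 CPM (ratio 0.485), in 56 and 38 cells, beside 6.79% of all genes past it lower. Cluster 24, GABAergic neurons led by Npas1, Npy and Sst, had Nfib at 798 and 489 CPM (ratio 0.613) and Nfia at 145 and 78.2 CPM (ratio 0.540), beside 2.78% of all genes past it lower. At resolution 1.5 it split into a part of 84 WT and 102 cKO cells, with Nfib at 1.36 and Nfia at 1.34, and a part of 56 and 28 cells, with Nfib at 0.822 (0.699 to 0.964) and Nfia at 0.522 (0.317 to 0.824). The lower direction was thus found in the second part only. Nfic was past the fold lower in Cajal-Retzius cells, from 38 and 15 UMIs with an interval that contains 1, and in choroid plexus cells, from 51 and 22 UMIs. Past that fold lower were 2.96% of all genes in Cajal-Retzius cells and 20% in choroid plexus cells, where the median of all genes was -0.26 on the log2 scale.

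**Figure D3:**
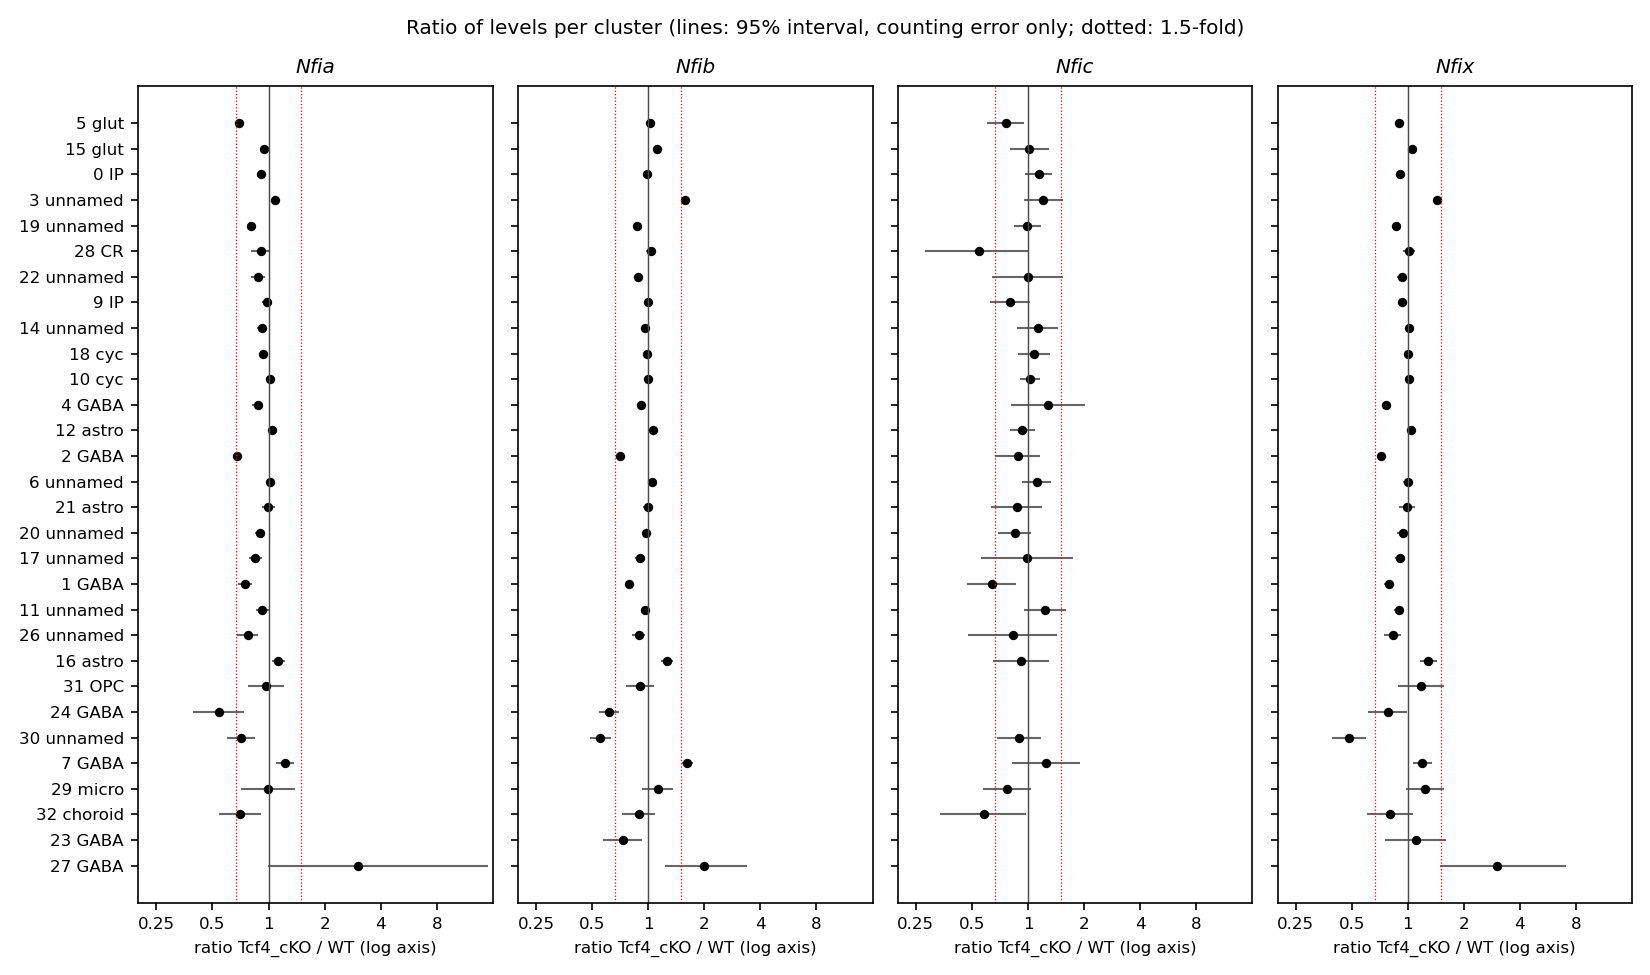
Ratio of each NFI gene (cKO over WT, log axis) in the clusters with at least 20 cells in both libraries and at least 50 UMIs, with 95% intervals; dotted lines mark 1.5-fold. Cycling clusters 10 and 18 and astroglial cluster 12 sit near 1, astroglial cluster 16 lies at 1.29 for Nfix, clusters 3 and 7 lie above 1 for Nfib, and cluster 5 lies below 1 for Nfia at 0.694.

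Gene lists, drawn up with knowledge of earlier results on these libraries, were then set beside the members. Some hold genes tied to NFI factors. The others hold regulators of gliogenesis upstream of or beside NFI factors, genes of the midline and genes of callosal neurons, and are not lists of NFI targets. Of 14 glial genes tied to NFI factors, 13 had at least 50 UMIs in astroglia. Of these 11 were lower in cKO and 2 higher, with a median log2 ratio of -0.17 beside -0.02 over all genes tested. Slc1a3, the glutamate transporter GLAST, stood at 1250 and 822 CPM (ratio 0.658, 0.637 to 0.680) and Sparcl1, a secreted synapse-forming protein, at 188 and 120 CPM (ratio 0.641). Aqp4, the water channel of astrocyte endfeet, was higher, at 5.56 and 12.2 CPM (ratio 2.19, 1.51 to 3.22), and Gfap, the intermediate filament of astrocytes, stood at 7.46 and 9.42 CPM with an interval that contains 1. These 2 lower genes and Aqp4 were past 1.5-fold, beside 3.84% of all genes. Of all genes tested, 46.49% were higher in cKO in astroglia, 47.19% in cycling progenitors, 47.02% in intermediate progenitors and 46.92% in glutamatergic neurons. Within cluster 12 the list had 8 of 11 members lower and a median of -0.42, within cluster 16 3 of 9 lower and 0.06, and within cluster 21 4 of 10 lower and 0.08. The difference between these clusters was not tested. All 4 NFI ratios in cluster 12 lay between 0.929 and 1.06.

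In cycling progenitors the same list had 11 of 12 members lower, 5 of them past 1.5-fold, beside 0.695% of all genes past it lower. Its median was -0.53, beside -0.01 over all genes. Aldh1l1, a folate enzyme that marks astrocytes, stood at 30.2 and 8.09 CPM (ratio 0.268, 0.203 to 0.350) and Slc1a2, the glutamate transporter GLT-1, at 139 and 61.4 CPM (ratio 0.443, 0.399 to 0.492). The median was -0.63 in cluster 10 and -0.86 in cluster 18, each with 1 or no member higher. The ratios of the NFI members in the same cells, given above, lay between 0.982 and 1.04.

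**Figure D4:**
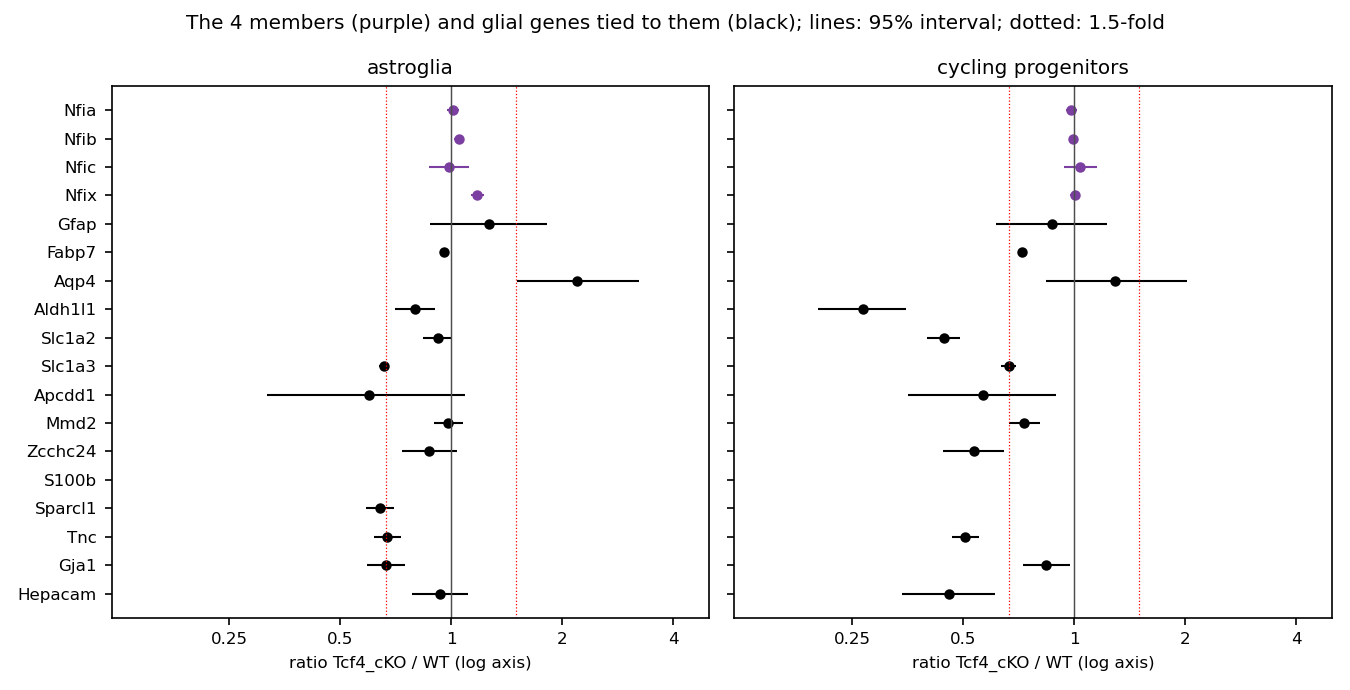
Ratio (cKO over WT, log axis) of the 4 NFI genes in purple and of the listed glial genes with at least 50 UMIs in black, in astroglia and cycling progenitors, with 95% intervals; dotted lines mark 1.5-fold. In cycling progenitors the NFI genes sit at 1 while Aldh1l1 lies at 0.268 and Slc1a2 at 0.443.

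Few glial genes of the list could be read in neurons. In glutamatergic neurons 6 had at least 50 UMIs, and of these Slc1a3 was 37.9 CPM in WT and 112 in cKO (ratio 2.95, 2.68 to 3.25) and Apcdd1, a Wnt inhibitor, 10.7 and 2.94 CPM (ratio 0.276). Slc1a3 was also 37.3 and 70.3 CPM in cluster 5 (ratio 1.88), where the cells of the libraries grouped largely apart. The direction of Slc1a3 in neurons was therefore opposite to that in astroglia.

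The progenitor genes tied to NFI factors did not move as a block. In astroglia 6 of 11 were higher and 5 lower, none past the fold, with Pax6 at 98.4 and 146 CPM (ratio 1.48) and Ezh2, the Polycomb methyltransferase, at 197 and 250 CPM (ratio 1.27). Hes1, a Notch target, stood at 248 and 176 CPM (ratio 0.710). In cycling progenitors 5 were higher and 6 lower with a median of -0.01, and Hes5 stood at 177 and 121 CPM (ratio 0.685). Of the 15 regulators of gliogenesis upstream of or beside NFI factors, 12 had enough UMIs in intermediate progenitors. Of these 10 were lower in cKO, none past the fold. The POU factor Pou3f2 was past it higher there, at 342 and 565 CPM (ratio 1.65), beside 1.09% of all genes. In glutamatergic neurons 9 of 11 were lower and 3 of these past the fold, beside 1.7% of all genes. These were Zbtb20, a zinc finger factor of cortical progenitors, at 861 and 536 CPM (ratio 0.622), the growth factor Tgfb2 at 28.4 and 10.9 CPM (ratio 0.383) and the Notch ligand Dll1 at 37.2 and 21.9 CPM (ratio 0.588). Pou3f2 was past it higher in these neurons too, at 154 and 286 CPM (ratio 1.86), beside 1.67% of all genes. In astroglia 8 of 14 were lower and 2 of these past the fold, beside 2.97% of all genes: Tgfb2 at 289 and 125 CPM (ratio 0.434) and Atf3, a stress-response factor, at 25.4 and 11.8 CPM. In cycling progenitors 8 of 14 were lower, and Olig2, a factor of the oligodendrocyte lineage, was past the fold at 14.5 and 4.66 CPM (ratio 0.321).

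Of the neuronal adhesion genes tied to NFI factors, Cntn2, a cell surface protein of growing axons, was far lower in cKO. It stood at 361 CPM in WT and 75.7 in cKO glutamatergic neurons (ratio 0.210, 0.197 to 0.223), and at 34.0 and 11.7 CPM in intermediate progenitors (ratio 0.342). In cluster 5, of which it is a leading gene, it was 489 and 101 CPM, while Nfib there had a ratio of 1.02. Nfia was lower in the same cluster, at 1258 and 873 CPM, and so was Nfix, at 3200 and 2886 CPM. The cells of the libraries grouped largely apart in this cluster, as given above. Cdh2, N-cadherin, was 410 and 497 CPM in glutamatergic neurons, and Efnb1, an ephrin, 67.5 and 67.7 CPM, neither past the fold.

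Genes of midline glia and of interhemispheric remodelling were lower in cKO astroglia for 16 of 23 members, 7 past 1.5-fold beside the 2.97% of all genes given above, and none past it higher, with a median of -0.31. Fgf17 stood at 185 and 32.5 CPM (ratio 0.176) and Fgf8, the signal that patterns the midline, at 74.3 and 18.3 CPM (ratio 0.246). The Fgf17 cluster 21 made up 294 of 802 WT and 116 of 795 cKO astroglia, and within it 13 of 20 members were lower with a median of -0.30, while the NFI sum there was 2906 and 2893 CPM. In cluster 12 the list's median was -0.07. The callosal list of neuronal identity and axon guidance genes was higher in cKO intermediate progenitors for 17 of 18 members, 6 past the fold beside 1.09% of all genes, with a median of 0.42. Pou3f1, a factor of upper-layer neurons, stood there at 38.3 and 122 CPM (ratio 3.18) and Cux2 at 7.93 and 24 CPM (ratio 3.02), whereas Dcc, the netrin receptor, was lower at 331 and 219 CPM (ratio 0.661). In glutamatergic neurons 14 of its 20 members were lower and 6 higher, with a median of -0.20 beside -0.01 over all genes. Past the fold were 3 lower and 3 higher, beside 1.7% and 1.67% of all genes. Part of this class was not shared between the libraries, as given above. Within cluster 5, 10 of 18 members tested were lower and 8 higher, with a median of -0.07. Within cluster 15, 8 of 17 were lower and 9 higher, with a median of 0.07. Over all glutamatergic neurons the semaphorin receptor Nrp1 stood at 298 and 169 CPM (ratio 0.567) while Cux2 was 8.01 and 21.1 CPM (ratio 2.64). Fgfr1, an FGF receptor of the midline list, was 233 and 92.3 CPM in glutamatergic neurons (ratio 0.397). No member of any of the 6 lists was past 1.5-fold in GABAergic neurons, where 0.653% of all genes were.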

How the data were processed

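Single-cell RNA was measured in 1 WT and 1 cKO library, made with a 10x Genomics 3′ kit per the labels. The deposited values are unnormalized UMI counts, with empty droplets included. Per the file headers the authors made them with Cell Ranger 7.1.0; version 2.1.1 and mm10 stand in the submitters' processing notes. Everything else was computed here. The members and gene lists were chosen with earlier results of these data known.

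A barcode was a cell from 3348 (WT) or 3341 (cKO) UMIs, the percentile 99 of the 5000 largest totals divided by 10, and with 500 genes or more and no more than 10% of UMIs from mitochondria. Doublets, 330 (3.68%) in WT and 526 (4.93%) in cKO, were called with scrublet in scanpy 1.11.5 and removed. Both libraries were clustered together on 2000 variable genes, 30 principal components and 15 neighbours with Leiden (leidenalg 0.10.2) at resolution 1. The variable genes held neither the 4 members nor Tcf4, nor haemoglobin, ribosomal, mitochondrial or sex-linked genes. Clusters were named from fixed markers, of which at least 3 had to be in 20% of cells and 1.5-fold over the rest, by rules set after the data were seen, one of which asks for Trp73 in Cajal-Retzius cells. Unnamed clusters held 30.98% of WT and 27.11% of cKO cells. All defining markers were above 0 in each named class except Ccdc153 in the ependymal or choroid plexus class.

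UMIs were summed per class or cluster and library. Genes past a fold had at least 50 UMIs over both libraries and a log2 ratio, with a pseudocount of 5 CPM, past 1.5-fold. No p-value was computed, since cells are not replicates. The named genes are the members, Tcf4, the 2 highest and 2 lowest of each list per large class by the interval bound nearest to 1, the 5 genes most like each member and the leading genes of clusters; values of listed genes within single clusters and of Atf3, Dll1, Tgfb2, Zbtb20, Fgfr1 and Apcdd1 follow the same rule or were added after their values were seen. Gene positions are from GENCODE vM21. Intervals and folds were tested on simulated data. Alternatives changed cell calling, doublets, clustering, weighting, depth, scaling, free RNA, the pseudocount and the filter on low counts.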

Additional observations from a re-analysis of the deposited data

Results flagged for a closer look

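Some values of a member lay on opposite sides of 1 in different cell types; these differences between cell types were not tested. The Nfib ratio of cKO over WT was 1.57 in cluster 3, 1.62 in cluster 7 and 1.98 in cluster 27, and 0.613 in cluster 24 and 0.553 in the vascular-gene cluster 30. The Nfix ratio was 3.01 in cluster 27 and 0.485 in cluster 30. The summed ratio of the family was 1.05 in glutamatergic neurons and 0.77 in GABAergic neurons. Cluster 27 had 21 WT cells, cluster 30 had 56 WT and 38 cKO cells, and cluster 3 had 94.4% of each cell's neighbours from its own library.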

How the results depend on the processing

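No paired analysis was possible because each genotype had 1 library. The ratios of each member in the 5 large classes stayed inside 1.5-fold under every alternative run, from 0.673 to 1.05 for Nfia, 0.753 to 1.23 for Nfib, 0.780 to 1.16 for Nfic and 0.720 to 1.21 for Nfix. Among those with an interval that excludes 1, Nfib in intermediate progenitors alone changed its side of 1. With the threshold at 25% higher or 20% lower, 4 member and class pairs were past the fold. The summed ratio in astroglia (1.06) was 1.03 at resolution 0.5 and 1.02 with unnamed clusters added to the nearest class. In cycling progenitors (0.997) the same alternatives gave 1.03 and 0.959, and thinned cells 0.966. In intermediate progenitors (0.991) it was 0.953 with the UMI minimum doubled, 0.894 with doublets kept, 0.966 and 0.899 at resolutions 0.5 and 1.5 and 0.957 with clusters weighted equally. In glutamatergic neurons (1.05) it was 1.03 and 1.11 at those resolutions, 1.13 with unnamed clusters added, 1.03 with thinned cells, 1.00 with equal weights, 1.06 with median-of-ratios scaling and, in an alternative added after the data were seen, 0.992 without clusters of 1 library. The last value turns its direction. In GABAergic neurons (0.770) it was 0.744 with the UMI minimum doubled, 0.843 with doublets kept, 0.785 with thinned cells and 0.848 with equal weights. The WT family level of astroglia over glutamatergic neurons (0.353) was 0.368 with the UMI minimum doubled, 0.391 and 0.374 at resolutions 0.5 and 1.5, 0.382 with unnamed clusters added, 0.273 with equal weights and 0.323 with thinned cells. The causes were not tested. The share of all genes past 1.5-fold in glutamatergic neurons was 2.04% with no filter on low counts. Nfic, found in 12.2% of all WT and 12.3% of all cKO cells after thinning, is limited by depth.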
